A study of Zea mays with 16 samples.

Results

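The 2 libraries of B104 control leaves were set against the 6 libraries of control leaves from B73, CML333 and M37W, out of 16 libraries in the series. All were chosen by the line and temperature in their labels, which call every sample leaf. B104 is an inbred much used for maize transformation, B73 is the inbred behind the maize reference genome, and CML333 and M37W are founders of a maize mapping population. Plants of each line were kept at 26 °C as controls or chilled at 4 °C, each such group has 2 libraries, and all plants had days of 14 h light at 250 µmol per square metre and second. The sources used here do not give plant age, the leaf taken, the length of chilling or the number of plants per library. The labels do not say that replicates came from separate plants, so the p-values measure the spread between these libraries, which may be technical. The libraries read the 3′ ends of transcripts and were counted per gene ID. They held 2705564 and 2644475 counts in the B104 controls and 2024851 to 2582414 in the other controls. Every pair of replicates differed by more than sampling noise, with a chi-square per degree of freedom of 46.9 in the B104 controls and 3.46 to 12.7 in the other control groups. The pair labelled CML333 chilled differed the most, at 56.3.

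A mature maize leaf is built to photosynthesise. Its most abundant nuclear transcripts usually encode light-harvesting, carbon-fixing and other chloroplast proteins, and the plastid genome encodes subunits of the photosystems, the cytochrome b6f complex, the ATP synthase and the plastid ribosome. The mitochondrial genome encodes a few subunits of the respiratory chain along with its own ribosomal RNAs and some tRNAs. The comparison therefore asks what RNA makeup the B104 controls show, using leaf markers, organelle genes and noncoding IDs.

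The B104 controls had another RNA makeup than the other controls in every class of ID that had counts. Noncoding IDs of Ensembl (those beginning with ENSRNA) and mitochondrial IDs took more of their counts, and plastid and nuclear IDs took less. Noncoding IDs held 5.03% and 3.69% of the counts in the B104 controls, against 0.0387% to 0.0799% in the 6 others. The means were 4.36% ± 0.948 (SD, n = 2) and 0.0625% ± 0.0159 (SD, n = 6), a ratio of 69.8. Mitochondrial IDs held 1.20% and 1.52% in the B104 controls, against 0.0869% to 0.354% in the others, with means of 1.36% ± 0.229 and 0.225% ± 0.116, a ratio of 6.04. Plastid IDs went the other way, with 17 and 11 counts in the B104 controls (0.000628% and 0.000416%) and 277 to 774 counts in each of the others (0.0114% to 0.0338%). Nuclear IDs held 94.28% ± 0.719 in the B104 controls and 99.69% ± 0.130 in the others. In each of these classes no B104 library overlapped the 6 others, and the exact two-sided permutation test gave p = 0.0714, the smallest that 2 libraries against 6 allow. In bulk leaf RNA, fewer cells of a type and less RNA per cell cannot be told apart, and neither can more of one class and less of another, since shares sum to a whole. The 154 microRNA IDs had 0 counts in all libraries.

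**Figure D1:**
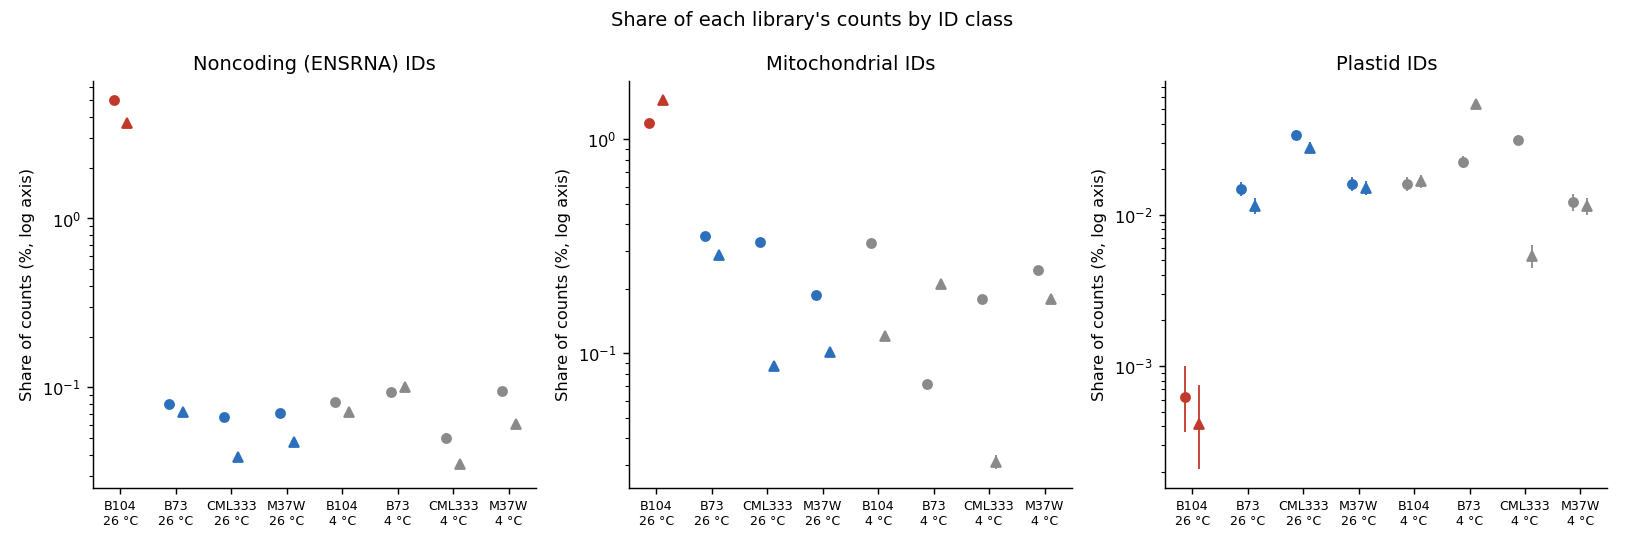
Share of each library's counts (percent, log axis) in noncoding, mitochondrial and plastid IDs, with exact 95% binomial intervals that cover counting error only. Circles are replicate 1 and triangles replicate 2, B104 controls are red, the other controls blue and chilled leaves grey. The B104 controls lie at 5.03% and 3.69% for noncoding IDs and at 0.000628% and 0.000416% for plastid IDs, apart from all other libraries in each panel.

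Chilled B104 leaves did not show this makeup. Noncoding IDs held 0.0824% and 0.0712% there, and 0.0352% to 0.101% over the 8 chilled libraries. Mitochondrial IDs held 0.326% and 0.121% in the chilled B104 leaves, the first of these the highest of the chilled libraries and below both B104 controls. Plastid IDs held 0.0159% and 0.0166% there, and 0.00532% to 0.0543% over the chilled libraries. The sample descriptions give plate columns, and the sources used here do not say whether these were batches of preparation. B104 replicate 1 shared column 1 with B73 replicate 1, where noncoding IDs held 5.03% in B104 and 0.0799% in B73. B104 replicate 2 shared column 3 with replicate 2 of CML333 and M37W, where they held 3.69% in B104 against 0.0387% in CML333 and 0.0474% in M37W.

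All 3 nuclear IDs taken as leaf markers were detected in the B104 controls, and 2 of them were far below the other controls. The files do not pair nuclear IDs with names, so the markers are given by ID with no role. Zm00001d046170 stood at 71.0 and 51.8 CPM (counts divided by the library's total and multiplied by 1000000) in the B104 controls, against 2405 and 1466 in B73, 1137 and 3141 in CML333, and 3818 and 7480 in M37W. Both B104 libraries were below every other control, and edgeR's quasi-likelihood test gave a log2 fold change of -5.32 (SE 0.615, adjusted p 2.13e-05). Zm00001d038163 stood at 1638 and 923 CPM in the B104 controls, against 11175 and 7701 in B73, 4690.0 and 4125 in CML333, and 12506 and 13952 in M37W. Here too the groups did not overlap, with a log2 fold change of -2.47 (SE 0.394, edgeR adjusted p 0.000223). These 2 calls stand beside a background of 58.7%, the share of all tested IDs called in this comparison. The markers were chosen with earlier results of these data known, so their p-values, here and below, are no independent test.

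The third marker did not separate the groups. Zm00001d000316 stood at 415 and 568 CPM in the B104 controls, against 1398 and 992 in B73, 785 and 321 in CML333, and 1115 and 1002 in M37W. CML333 replicate 2 lay below both B104 libraries, and the log2 fold change of -0.60 (SE 0.399) missed the threshold (edgeR adjusted p 0.217). It passed without B104 replicate 2 (-0.996, edgeR adjusted p 0.0489). Summed over the 3 markers, the B104 controls reached 2125 and 1544 CPM, against 6612 to 22434 in the other controls. Marker lists for meristem, flower, root, seed, pollen, cell cycle and stress genes had been drawn up by gene name, and 0 of the 15 lists matched a nuclear ID. What tissue the B104 controls came from was therefore not tested, and only the levels of these markers and of the organelle genes are given.

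**Figure D2:**
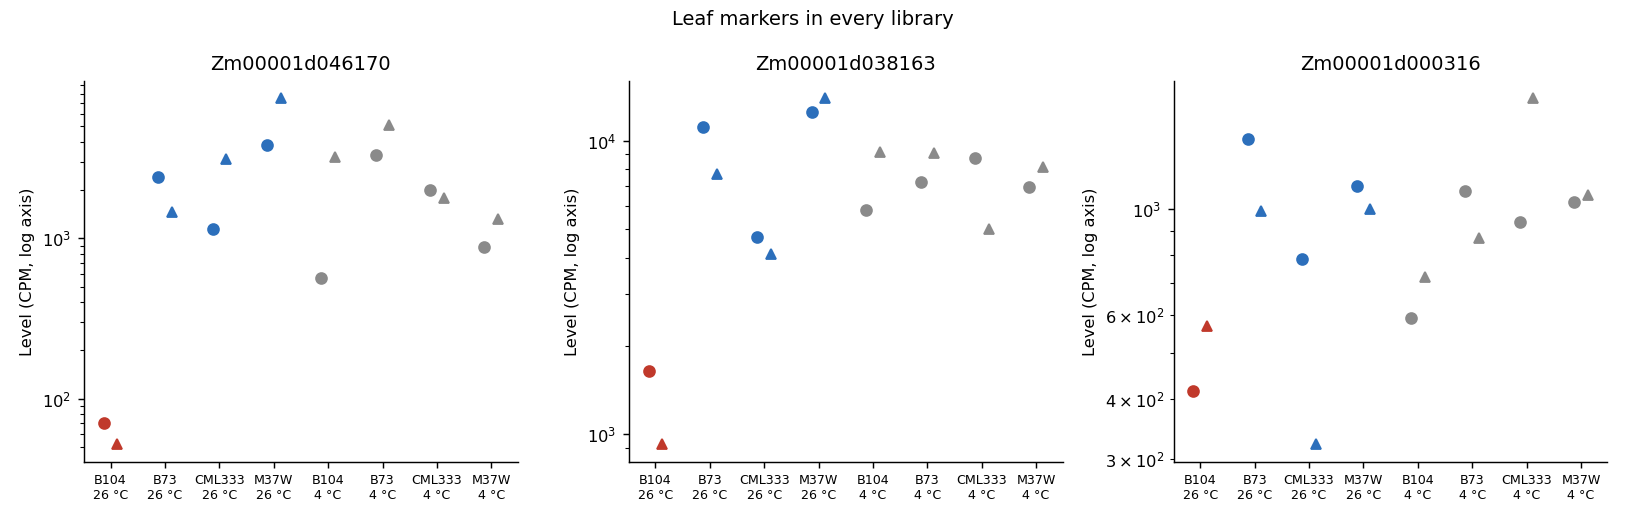
Level in CPM (log axis) of the 3 leaf markers in all libraries, with circles for replicate 1 and triangles for replicate 2. B104 controls (red) lie below all other controls (blue) and chilled leaves (grey) for Zm00001d046170, at 71.0 and 51.8 CPM, and for Zm00001d038163, at 1638 and 923 CPM, and among the other controls for Zm00001d000316.

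In chilled B104 leaves the first 2 markers were nearer to the other lines. Zm00001d046170 stood at 562 and 3221 CPM in the chilled B104 leaves, against 887 to 5076 CPM in the chilled leaves of the other lines. The gap difference, the gap of B104 to the other lines at 26 °C minus that at 4 °C, was -5.29 log2 units (SE 0.897) in edgeR's fit of all 16 libraries (adjusted p 0.000558). Zm00001d038163 stood at 5800.1 and 9149.7 CPM in chilled B104 leaves, against 5003 to 9113 CPM in the other chilled leaves. Its gap difference was -2.55 (SE 0.547, edgeR adjusted p 0.00278), and that of Zm00001d000316 was 0.06 (SE 0.532) and missed the threshold.

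The larger share of noncoding IDs in the B104 controls was spread over many of them. Of the 1765 noncoding IDs, 401 had a count in B104 replicate 1 and 353 in replicate 2, against 151 to 239 in each of the other controls. The most abundant of them stood at 1508 and 1722 CPM in the B104 controls, against 0.988 to 8.31 CPM in the other controls, a ratio of means of 366. The 10 most abundant together held 30.8% and 25.03% of the class in the B104 controls. Of the class, 90 IDs reached 100 CPM in both B104 controls, while 1 ID did so in any other library of the series, at 111 CPM. Between the B104 libraries, 286 noncoding IDs were higher in replicate 1 and 144 in replicate 2. The sources used here do not say what kind of RNA each of these IDs stands for.

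Of the noncoding IDs, 221 passed the low-count filter, which reads the B104 libraries as well. Of these, 212 were higher and 2 lower in the B104 controls, where 30.8% of all tested IDs were higher and 27.9% lower, but IDs that passed only through the B104 libraries had to differ. The IDs averaging at least 1 CPM in the 6 other controls, a filter that does not read the B104 libraries, included 135 noncoding ones. Of these, 113 were called, 110 higher and 3 lower in the B104 controls, where 52.8% of all IDs so filtered were called, 26.4% higher and 26.4% lower. Libraries of this kit are primed on poly(A) tails, and the sources used here do not say how reads with several alignments were counted.

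Mitochondrial transcripts were higher in the B104 controls mostly through ribosomal RNA. The small-subunit RNA rrn18 stood at 5318 and 8069 CPM in the B104 controls, against 35.2 to 274 CPM in the others, with the highest value in CML333 replicate 1. Its log2 fold change of 6.79 (SE 0.512, edgeR adjusted p 1.06e-06) was the largest positive one among the organelle genes with counts in all 6 others. The large-subunit RNA rrn26 stood at 2817 and 3022 CPM in the B104 controls, against 177 to 1162 CPM in the others, a log2 fold change of 3.25 (SE 0.482, edgeR adjusted p 0.000132). The mitochondrial 5S RNA, rrn5, stood at 725 and 243 CPM in the B104 controls, against 35.3 to 221 CPM in the others (log2 fold change 2.35, SE 0.539, edgeR adjusted p 0.00278). It lost its call without B104 replicate 1 (adjusted p 0.165). Together these RNAs made up 74.1% and 74.6% of mitochondrial counts in the B104 controls, and 7.92% to 47.0% in the others. Mitochondrial counts other than ribosomal RNA came to 3090.3 and 3852 CPM in the B104 controls and 559 to 3262 CPM in the others, and these ranges overlapped. In the B73 controls most mitochondrial counts, 81.6% and 73.04%, came from a single open reading frame, orf99-d, which held 10.9% and 12.8% in the B104 controls.

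Protein genes of the respiratory chain differed among themselves. The complex I gene nad4 stood at 625 and 1026 CPM in the B104 controls, against 21.4 to 413 CPM in the others, with a log2 fold change of 3.85 (SE 0.429, edgeR adjusted p 1.64e-05). The ATP synthase gene atp4 stood at 33.3 and 27.6 CPM in the B104 controls, against 0.894 to 9.88 CPM in the others (log2 fold change 3.25, SE 0.497, edgeR adjusted p 0.000166). The complex IV gene cox1 stood at 38.8 and 28.7 CPM in the B104 controls, against 3.13 to 22.3 CPM in the others (log2 fold change 1.95, SE 0.482, edgeR adjusted p 0.00441). The groups did not overlap for any of these 3 genes. Another complex IV gene, cox3, stood at 39.2 and 37.4 CPM in the B104 controls and 15.0 to 182 CPM in the others, and missed the threshold (log2 fold change 0.20, SE 0.499, edgeR adjusted p 0.753). Its sign turned with no scaling beyond library totals (-0.02) and it was called with a block on plate column (1.04, adjusted p 0.0305).

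Of the genes for the machinery of the mitochondrion, some were higher and others not. The serine tRNA gene trnS-a stood at 53.2 and 36.7 CPM in the B104 controls, against 0 to 1.48 CPM in the others. A further serine tRNA gene, trnS-b, had 66 counts in the B104 controls and 1 in the 6 others, a ratio of 170 in CPM with a counting interval of 29.4 to 6807. The ribosomal protein gene rps12 stood at 41.0 and 36.7 CPM in the B104 controls, against 1.36 to 30.6 CPM in the others (log2 fold change 2.32, SE 0.533, edgeR adjusted p 0.00276). The cytochrome c maturation gene ccmC stood at 5.17 and 5.29 CPM in the B104 controls, against 0 to 1.94 CPM in the others. These 3 genes, trnS-a, trnS-b and ccmC, averaged under 1 CPM in the other controls and drop out under a filter on those controls alone, so their levels are given with no test. A reading frame with no role given here, orf140-b, was higher too, at 20.7 and 16.3 CPM in the B104 controls against 1.55 to 15.7 CPM in the others (edgeR adjusted p 0.000668). A second cytochrome c maturation gene, ccmFN, stood at 105.0 and 102 CPM in the B104 controls and 13.9 to 433 CPM in the others, and was not called (log2 fold change 0.14, SE 0.545, edgeR adjusted p 0.852). Its sign turned with no scaling beyond library totals (-0.10) and without the CML333 controls (-0.43).

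Libraries of 1 line or 1 replicate carried part of the remaining mitochondrial calls. The arginine tRNA gene trnR-a stood at 73.2 and 4.16 CPM in the B104 controls, against 0.387 to 9.18 CPM in the others, so its call rested on B104 replicate 1 (log2 fold change 3.14 with it and 0.12 without it, edgeR adjusted p 0.00401 and 0.931). With limma and voom it was not called either (adjusted p 0.0605). For orf99-d the 1307 and 1937 CPM of the B104 controls lay below the 2889.5 and 2107 CPM of B73 and above the 127 to 409 CPM of CML333 and M37W. It was called against the mean of the lines (log2 fold change 1.89, SE 0.363, edgeR adjusted p 0.000857). The ribosomal protein gene rps1 was called with overlap, at 650.5 and 521 CPM in the B104 controls and 45.3 to 597 CPM in the others (log2 fold change 1.85, SE 0.420, edgeR adjusted p 0.00254). One reading frame, orf101-a, was lower, at 1.11 and 0.378 CPM in the B104 controls against 1.36 to 39.4 CPM in the others (log2 fold change -2.88, SE 0.926, edgeR adjusted p 0.0184). It passed the low-count filter only through the other controls, so its call is no test of direction. Its call was lost without the CML333 controls, without B104 replicate 2 and with the others as 1 group (edgeR adjusted p 0.0593, 0.0658 and 0.0783). The ribosomal protein gene rps7, the reading frame orf1159 and rbcL-ct overlapped between the groups and were not called (edgeR adjusted p 0.0799, 0.483 and 0.105).

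Over the class, 20 of 208 mitochondrial IDs passed the low-count filter. Of these 20, 14 were higher, 1 was lower and 5 missed the threshold, where 30.8% of all tested IDs were higher and 27.9% lower. Against B73 alone 14 of the 20 were higher and 2 lower, against CML333 9 and 1, and against M37W 14 and 0. Of all tested IDs, 52.3%, 52.4% and 53.9% were called in these comparisons, in either direction. Not called against CML333 were cox1, trnR-a, rps12, orf140-b and rps1 (edgeR adjusted p 0.0543, 0.0788, 0.171, 0.141 and 0.270). Of the 20, 11 lay above all 6 others and 1 below, where 21.1% of all tested IDs lay above and 28.2% below. The 14 higher against the mean of the lines and the 11 both include trnS-a, trnS-b and ccmC, which passed the filter only through the B104 libraries and had to differ. The 1 that was lower, orf101-a, passed it only through the other controls, so it is no test of direction either. With the filter on the 6 other controls alone, 11 of 22 mitochondrial IDs were higher and 2 lower. Of all IDs so filtered, 26.4% were higher and 26.4% lower. With the 6 other controls taken as 1 group in place of 3 lines, the calls of rps12, orf140-b, rps1 and orf99-d were lost (edgeR adjusted p 0.0536, 0.0566, 0.115 and 0.446).

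Plastid genes were at or near 0 in the B104 controls, and every one that could be tested was lower. The whole class had 28 counts in the B104 controls and 2712 in the 6 others, over 157 IDs. The photosystem I assembly gene ycf3 stood at 0.370 and 0.378 CPM in the B104 controls, 1 count in each, against 15.9 and 26.8 in B73, 77.4 and 162 in CML333, and 6.42 and 5.44 in M37W. With 2 counts against 671 it was 130-fold lower in CPM, with a counting interval of 36.0 to 1079 (log2 fold change -5.66, SE 0.687, edgeR adjusted p 3.12e-05). The photosystem I subunit gene psaJ had 0 counts in the B104 controls and 106 in the others, at least 13.7-fold lower (edgeR adjusted p 0.00176). The limit for a gene at 0 was set at 3 counts over the group.

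The other plastid genes gave the same direction. The cytochrome b6f subunit gene petD had 0 counts in the B104 controls and 136 in the others, at least 17.6-fold lower, but its call (edgeR adjusted p 0.00725) was lost without either B104 library (0.0822 and 0.0649), while its log2 fold change was -7.47 with both and -7.45 and -7.49 with 1. The ATP synthase gene atpF had 0 counts in the B104 controls and 169 in the others, at least 21.9-fold lower (edgeR adjusted p 8.51e-05). The lysine tRNA gene trnK stood at 0.370 and 3.03 CPM in the B104 controls, against 16.5 to 189 CPM in the others (log2 fold change -4.37, SE 0.701, edgeR adjusted p 0.000237). The maturase gene matK, nested in the trnK intron, stood at 5.54 and 0 CPM in the B104 controls, against 10.7 to 94.5 CPM in the others (log2 fold change -3.76, SE 0.728, edgeR adjusted p 0.000893). Reads of this nested pair may be shared, as may reads of organelle genes that have near-identical nuclear copies, and the sources used here do not say how they were assigned. All 6 of 6 tested plastid IDs were called lower and lay below all other controls, where 27.9% of all tested IDs were called lower and 28.2% lay below. They passed the low-count filter through the other controls, so they had to be lower in the B104 controls, and their calls are no test of direction. The counts over all 157 plastid IDs, 28 in the B104 controls and 2712 in the others, do not depend on that filter.

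**Figure D3:**
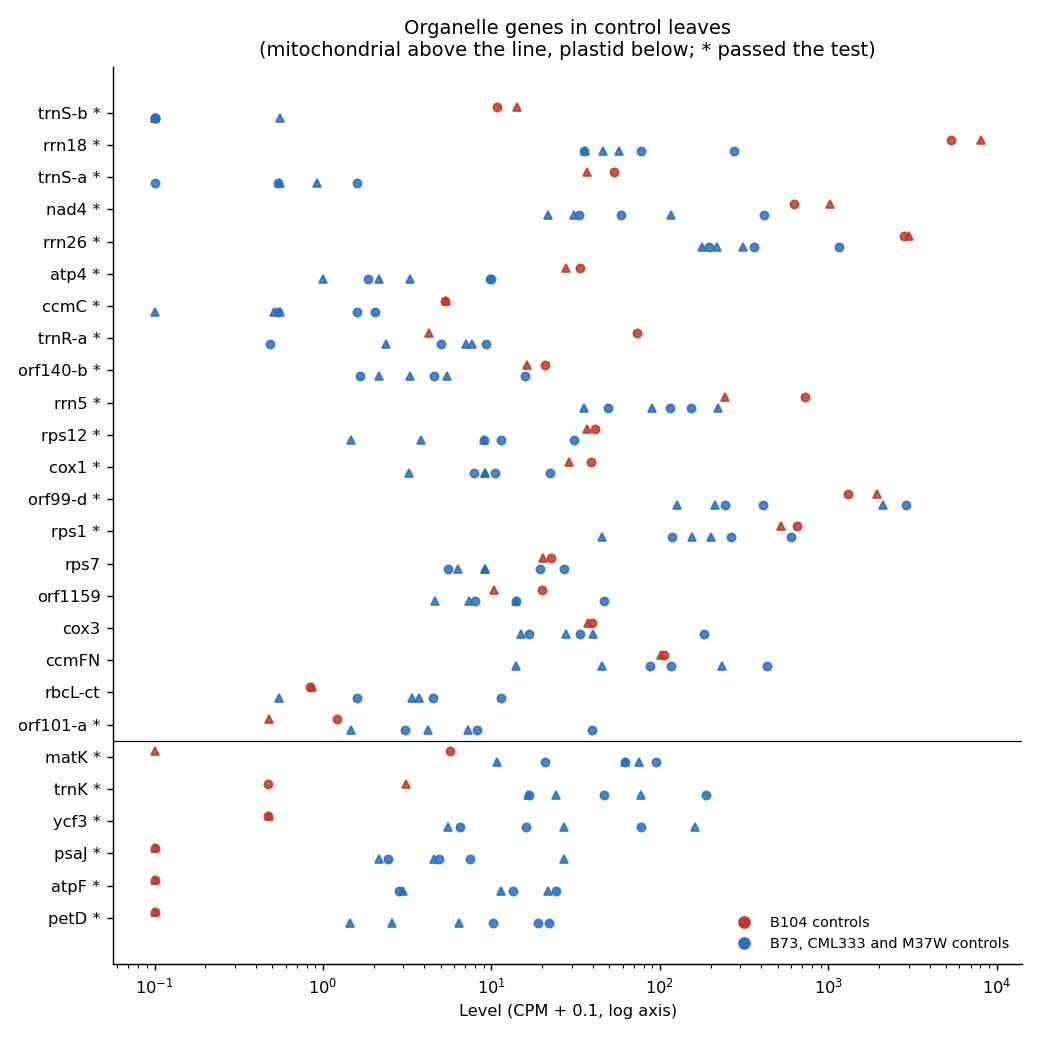
Level in CPM + 0.1 (log axis) of the 26 organelle genes tested, in B104 controls (red) above the other controls (blue) in each row, with circles for replicate 1 and triangles for replicate 2. Genes run from the highest to the lowest log2 fold change within each genome, and * marks an edgeR adjusted p under 0.05. For trnS-a, trnS-b, ccmC, orf101-a and all 6 plastid genes the mark is no test, since they passed the low-count filter only through the group where they are high. The B104 points of rrn18 and trnS-a lie far to the right of the others, and those of all 6 plastid genes lie to the left.

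The organelle genes were also compared between chilled B104 leaves and the other chilled leaves. Of 22 mitochondrial and 6 plastid IDs tested in the 16 libraries, edgeR called 0 in this comparison, where 8.31% of all tested IDs were called. At an unadjusted p under 0.05 there were 2 mitochondrial IDs and 1 plastid ID, and DESeq2 and limma with voom called 0 as well. A missed threshold does not show that a difference was absent. The ribosomal RNA rrn5 stood at 224 and 258 CPM in chilled B104 leaves, against 40.2 to 116 CPM in the other chilled leaves, with no overlap, and its gap difference of 0.67 (SE 0.845) missed the threshold (edgeR adjusted p 0.603). For orf99-d the gap was 1.51 log2 units at 4 °C, and its gap difference of 0.43 missed the threshold too (edgeR adjusted p 0.784). For rrn18 the temperatures differed: it stood at 148 and 37.5 CPM in the chilled B104 leaves, against 30.7 to 213 CPM in the chilled leaves of the other lines. Its gap difference was 6.83 log2 units (SE 1.21, edgeR adjusted p 0.000782). The plastid gene ycf3 stood at 20.4 and 122 CPM in the chilled B104 leaves, against 30.3 to 353 CPM in the other chilled leaves, and its gap difference was -5.15 (SE 1.27, edgeR adjusted p 0.00685). Among the plastid genes atpF alone did not pass this test (gap difference -5.07, SE 3.09, edgeR adjusted p 0.230). The plastid genes were at or near 0 in the B104 controls and passed the low-count filter through other libraries. Their gap differences therefore follow in part from the filter. Of the 22 mitochondrial IDs 4 passed it, all higher, where 33.9% of all tested IDs passed, 15.1% higher and 18.8% lower. Among the 4 is trnS-a, which was near 0 in the other controls. The other 18 did not pass, and 1 of them, trnS-b, had no estimate because a group was at 0.

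Nuclear transcripts differed across the B104 controls as a whole. Of 16093 nuclear IDs tested, 4799 were higher and 4558 lower in the B104 controls. Over all classes 9592 of 16340 tested IDs (58.7%) were called, 5025 higher and 4567 lower, by edgeR's quasi-likelihood test of the 8 control libraries with Benjamini-Hochberg adjustment. Called IDs that were higher had a median log2 fold change of 2.11, and those that were lower one of -2.81. At least 8-fold differences were found for 1660 called IDs that were higher and 2093 that were lower. The median over all tested IDs was 0.03, and it was -0.19 with no scaling beyond library totals. Without that scaling 4345 IDs were called higher and 5033 lower. For 8054 of the tested IDs (49.3%) the B104 libraries did not overlap the 6 others.

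The largest nuclear differences were close to on or off. Zm00001d043574 stood at 667 and 2539 CPM in the B104 controls and at 0 counts in all other controls, at least 7306-fold higher. Zm00001d005890 stood at 398 and 2073 CPM in the B104 controls and had 4 counts in the 6 others, all in CML333 replicate 1, a ratio of 4219 with a counting interval of 1647 to 15491. Both passed the low-count filter only through the B104 controls, so their levels are given with no test. Both were near 0 in chilled B104 leaves, at 0.463 and 0 CPM and at 2.78 and 0 CPM. In the other direction Zm00001d046743 had 0 counts in the B104 controls and 41.0 to 69.8 CPM in the others, at least 91.3-fold lower. Zm00001d053845 had 0 counts in the B104 controls and 8.16 to 226 CPM in the others, at least 140-fold lower. Both of these passed the low-count filter only through the other controls, so their levels too are given with no test. These last IDs stood at 24.5 and 39.2 CPM and at 56.0 and 95.0 CPM in chilled B104 leaves, and their gap differences were -10.27 (SE 1.16) and -10.34 (SE 1.75). They were picked for their low levels in the B104 controls, so these gap differences follow in part from the choice.

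The IDs that fill the other leaf libraries were low in the B104 controls. The 50 most abundant nuclear IDs of the other controls held 4.72% and 5.95% of the counts in the B104 controls, against 14.9% to 21.9% in the others. Of these 50, 42 lay below all other controls in both B104 libraries and 1 lay above, with a median log2 ratio of -5.13. Of all tested IDs, 28.2% lay below and 21.1% above. The list was chosen in the other controls, so these values describe it and are no test. The most abundant of them stood at 703 and 299.9 CPM in the B104 controls, against 15474 to 26375 CPM in the others. The next, by contrast, stood at 6137 and 15726 CPM in the B104 controls and 12639 to 28274 CPM in the others, and it was also the second most abundant of the B104 controls.

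The list of abundant IDs was largely another one in the B104 controls. Their 50 most abundant nuclear IDs held 17.7% and 21.1% of the counts in the B104 controls, against 4.34% to 6.43% in the others, and 6 of the 50 were shared with the list of the other controls. This list was chosen in the B104 controls, so their higher share follows from the choice. The most abundant of them stood at 22306 and 18209 CPM in the B104 controls, against 1798 to 8299.8 CPM in the other controls. It was also high in chilled B104 leaves, at 28497 and 17099.6 CPM. The third stood at 11197 and 5450.2 CPM in the B104 controls and at 3.29 to 43.7 CPM in the others, and at 30.1 and 2.68 CPM in chilled B104 leaves. The concentration of counts itself was alike: each library's own 50 most abundant nuclear IDs held 18.9% and 22.3% in the B104 controls and 16.3% to 22.6% in the others.

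The number of IDs seen at equal depth overlapped between the groups. Thinned to the smallest control total, the B104 controls had 19765 and 19353 IDs with a count, against 18699 to 19704 in the others (difference of means 244, exact two-sided permutation p = 0.500). The IDs themselves differed. In all, 759 IDs had counts in both B104 controls and 0 in all 6 others, of which 704 were nuclear, 50 noncoding and 5 mitochondrial, and 97 of them averaged over 10 CPM. In the other direction 479 IDs had counts in all 6 others and 0 in both B104 controls, of which 108 averaged over 10 CPM. Of the 759, 375 had no count in any chilled library, chilled B104 included.

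The B104 controls differed from each other line by more IDs than the other lines differed among themselves. In the same fit, B104 controls differed from B73 at 8543 IDs (52.3% of those tested), from CML333 at 8556 (52.4%) and from M37W at 8810 (53.9%). Among the other controls, B73 differed from CML333 at 3767 IDs (23.1%), B73 from M37W at 1983 (12.1%) and CML333 from M37W at 1761 (10.8%). These comparisons share libraries and 1 estimate of the spread, to which the B104 replicates contribute. When 1 library was left out, the counts ran from 6133 to 10043 in the pairs with B104 and from 451 to 6445 in the pairs without it. The highest counts in the pairs without B104 came from leaving out B104 replicate 1 or 2.

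**Figure D4:**
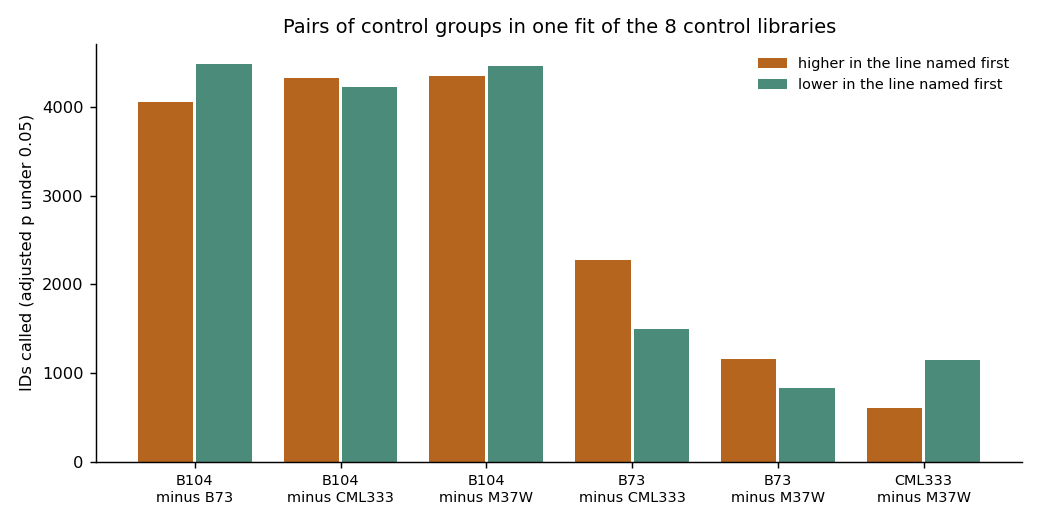
Number of IDs called (edgeR adjusted p under 0.05) in each pair of control groups, with separate bars for IDs higher and lower in the line named first. The pairs with B104 reach 8543 to 8810 IDs in all and the pairs without it 1761 to 3767.

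At 4 °C the B104 leaves were much closer to the other lines. Chilled B104 leaves differed from the mean of the other chilled lines at 1446 of 17410 IDs (8.31%), 1082 higher and 364 lower. In the same fit of 16 libraries the B104 controls differed from the other controls at 9689 IDs (55.7%). The gap itself differed between the temperatures for 5902 IDs (33.9%), 2625 (15.1%) with a more positive gap at 26 °C and 3277 (18.8%) with a more negative one. A further 1245 IDs, 1151 of them nuclear, had no estimate in this test because a group was at 0. Without the 4 CML333 libraries the count was 6399. Temperature and any other difference between control and chilled B104 leaves cannot be told apart here.

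Across 18602 IDs with a mean of at least 1 CPM, the B104 controls correlated with each other at r = 0.885 on log2(CPM + 1). With other controls r ran from 0.460 to 0.517, with chilled B104 leaves from 0.477 to 0.549 and with other chilled leaves from 0.423 to 0.528. Libraries of different groups without the B104 controls correlated at 0.692 to 0.912. IDs are not replicates and share libraries and depth, so these values are descriptions.

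The line label was checked on IDs that are on in one line and off in the other. A set of 39 IDs was on (at least 10 CPM) in both chilled B104 libraries and off (0 counts) in all 4 B73 libraries, or the reverse, with no B104 control used in the choice. The B104 controls were in the B104 state for 74.4% and 82.1% of them, reading at least 1 CPM as on. The libraries of CML333 and M37W, of either temperature, were in that state for 46.2% to 53.8%. With 74 IDs chosen in chilled B104 and the B73 controls alone, the shares were 68.9% and 70.3% in the B104 controls and 41.9% to 58.1% in the libraries of CML333 and M37W. Split by direction, the 36 IDs on in chilled B104 were on for 63.9% and 55.6% in the B104 controls and for up to 72.2% in chilled CML333 and M37W libraries. The 38 IDs off in chilled B104 were off for 73.7% and 84.2% in the B104 controls and for at most 52.6% in those of CML333 and M37W.

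**Figure D5:**
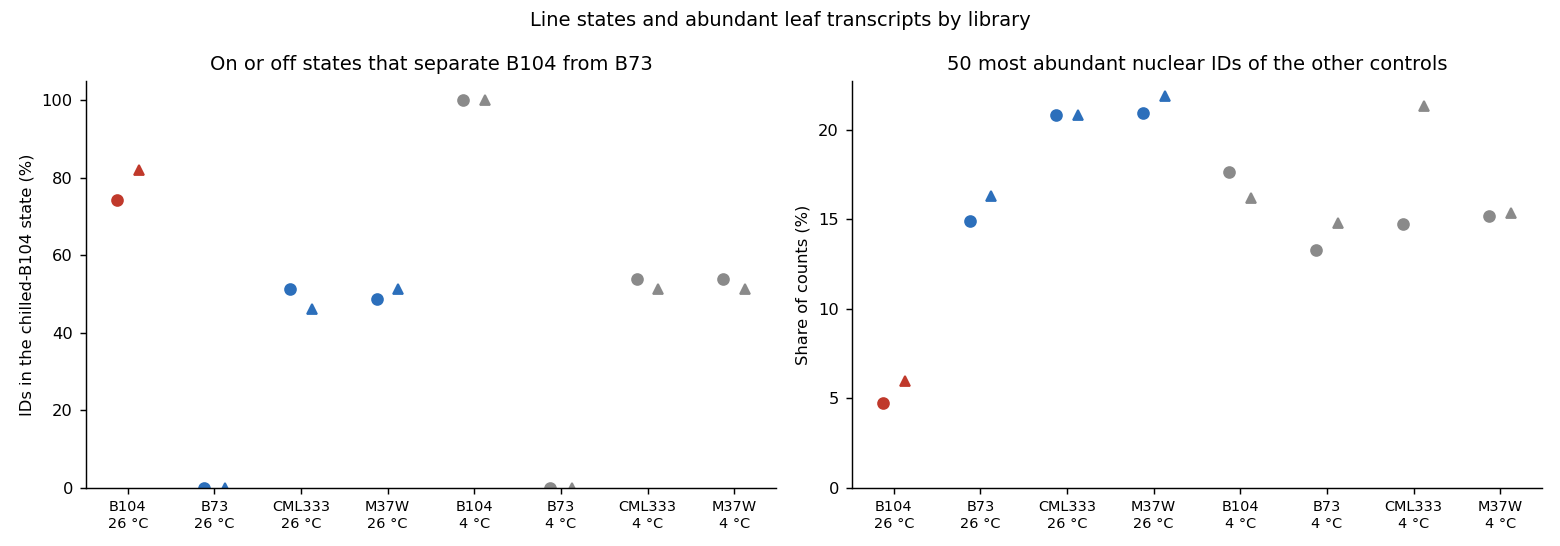
Left, share (percent) of 39 on or off IDs in the state of chilled B104, where chilled B104 is fixed at 100% and B73 at 0% by the choice. Right, share (percent) of counts in the 50 most abundant nuclear IDs of the other controls. In both, circles are replicate 1 and triangles replicate 2. B104 controls (red) lie at 74.4% and 82.1% on the left and at 4.72% and 5.95% on the right, the lowest of all 16 libraries there.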

How the data were processed

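Leaf RNA of 4 maize lines was read from the 3′ end (QuantSeq FWD kit, NextSeq500), per the labels' protocols. The authors deposited 1 table of raw counts per gene ID and library, unscaled. STAR and edgeR were the authors' tools, per the submitters' processing notes. The sources used here do not give versions, the genome build or the handling of multiply aligned reads. The tables list 46430 IDs, 44146 of them nuclear, and 518 had a symbol in the RefSeq table used for names, none of them nuclear. Organelle and noncoding IDs were told apart by prefix.

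Counts were tested with edgeR 4.0.16 in R 4.3.3 (filterByExpr by group, TMM scaling, quasi-likelihood test, Benjamini-Hochberg adjustment, called under 0.05, two-sided). The 8 control libraries were fitted with 1 mean per line, and B104 was set against the mean of the 3 other line means. All 16 libraries were fitted for the gap difference. TMM factors ran from 0.824 to 1.153. Where a group is at 0 such contrasts can have no estimate (148 IDs in the control comparison). Levels are CPM on total counts. Exact permutation tests, binomial intervals (Clopper-Pearson, 95%) and thinning used Python 3.11.15 with scipy 1.17.1. Intervals and the limit of 3 counts for a value of 0 cover counting error only. On simulated counts, 42 of 50 IDs with a 4-fold change, 4 of 50 with a 2-fold change and 11 of 15227 unchanged IDs were called. The simulation used 1 dispersion for all IDs and libraries and no differences among the other lines. It changed far fewer IDs than were called here, so these rates need not hold for the real libraries.

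Named IDs were the 3 markers, organelle genes (all 26 tested are described or counted), and the 2 highest and 2 lowest called nuclear IDs without overlap whose higher group had a mean of 50 CPM or more. The members and lists were chosen with earlier results of these data known. The alternatives used limma 3.58.1 (voom), DESeq2 1.42.0, other scalings, filters and thresholds, blocks, and left-out libraries. The left-out libraries and DESeq2 in the pairs of control groups, and the on or off states chosen in B73 at both temperatures, were added after the data were seen. The authors' tables of normalized values per line were not used.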

Additional observations from a re-analysis of the deposited data

Results flagged for a closer look

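For the IDs below the gap of B104 to the other lines differed between 26 °C and 4 °C in edgeR's fit of all 16 libraries with Benjamini-Hochberg adjustment, which is what brought them here. Over all IDs 5902 of 17410 passed this test. The gap at 26 °C minus the gap at 4 °C, in log2 units, was -5.29 for the marker Zm00001d046170 and -2.55 for the marker Zm00001d038163. It was 6.83 for the mitochondrial ribosomal RNA rrn18, 2.99 for rrn26 (adjusted p 0.0461), 4.85 for the tRNA gene trnS-a, which averaged under 1 CPM in the other controls, and 4.18 for the complex I gene nad4. Among plastid genes it was -8.59 for petD, -5.15 for ycf3, -4.35 for trnK and -5.32 for matK. The plastid gene psaJ passed this test too, at -6.21 (edgeR adjusted p 0.0272). All these plastid genes were at or near 0 in the B104 controls and passed the low-count filter through other libraries. Their gap differences therefore follow in part from the filter. The gap difference was -10.27 for Zm00001d046743 and -10.34 for Zm00001d053845, nuclear IDs picked for their low levels in the B104 controls, with 0 counts in both. What moves with these values in the same libraries is the larger share of noncoding IDs (5.03% and 3.69% in the B104 controls, at most 0.101% in any other library), and its part in them was not tested.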

How the results depend on the processing

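The count of IDs called in the B104 controls against the other controls stayed within 1.5 times of 9592 under all 22 alternatives. It was 8944 with DESeq2, 9764 with limma and voom, 8883 without the CML333 controls, 6731 with the 6 others as 1 group, 11235 with no low-count filter and 9195 to 10411 with 1 library left out. Which direction held more IDs changed with the processing. There were 5025 higher and 4567 lower in the main fit, and 4658 and 4286 with DESeq2. With no scaling beyond library totals there were 4345 and 5033, and with limma and voom 4728 and 5036. The replicate numbers did not pair the samples (correlation of replicate differences from -0.16 to 0.19 over 6 pairs of groups, 2 of them over 0.1). With a replicate block the count was 9436 by title number and 9047 by plate column. The gap difference was called for 3560 IDs at an adjusted p under 0.01, and for 4249 to 5612 with 1 B104 library left out. With 1 control library left out, and the lone library assumed to vary like the other groups, B73 minus CML333 ran from 1548 to 6445, B73 minus M37W from 451 to 4216 and CML333 minus M37W from 535 to 4070. Each of these was over 1.5 times higher without either B104 library and as far lower without any library of its own lines. The summed markers differed by -11367 CPM, and by -3623 CPM without the most abundant of them. The 50 most abundant IDs of the other controls differed by -13.9 percentage points, the top 200 by -20.7, and each library's own top 50 by 0.0750 in the other direction. IDs at equal depth were 244 more in the B104 controls with any count, and differed by -562 (exact permutation p 0.286) with at least 5 counts. Of 33 named IDs 27 were called, where 58.7% of all tested IDs were called, and 19 of these kept their call under every alternative that gave a value. The nuclear IDs other than the markers were picked among called IDs. Some organelle genes passed the low-count filter through 1 group alone, so the count follows in part from these choices. The uncalled ccmFN turned to -0.10 with no scaling, -0.43 without the CML333 controls, -0.40 with the others as 1 group, and -0.15 to 0.73 with 1 library left out, below 0 in 3 of 8 cases. The uncalled cox3 turned to -0.021 with no scaling and -0.23 with the others as 1 group, and ran from -0.060 to 0.67 with 1 library left out, below 0 without CML333 replicate 2. The uncalled orf1159 ran from -0.0014 without B104 replicate 1 to 0.78. The causes were not tested. Depth limits the plastid genes, with 28 counts behind the class in the B104 controls.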
